A study of Mus musculus with 9 samples.

Results

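The BCL2 family decides at the mitochondrial outer membrane whether a cell lives or dies by the intrinsic route of apoptosis, and 10 of its genes were followed here in activated mouse CD4+ T cells. They were chosen by name, with earlier results of these data known. They comprise the prosurvival genes Bcl2, Bcl2l1, Mcl1 and Bcl2a1b, the effectors Bax and Bak1, and the BH3-only genes Bcl2l11, Bbc3, Pmaip1 and Bid. All 10 were present among the 55536 genes of the count table and all 10 were among the 14684 genes with enough counts to be tested. The T cells were wild-type, taken from the spleen of male animals 6 to 12 weeks old, and every culture was stimulated for 18 h with anti-CD3/anti-CD28 beads, which engage the antigen receptor and its costimulatory partner, plus 5 ng/mL of murine IL-2, a growth factor that keeps activated T cells alive. Over the same 18 h, 3 cultures were given exosomes, vesicles that cells secrete, of wild-type BMDM, as macrophages grown from bone marrow are commonly abbreviated (WT_exo). A further 3 received exosomes from BMDM lacking apolipoprotein E, a lipid-carrying protein (EKO_exo), and 3 received phosphate-buffered saline with no vesicles (PBS). Both kinds of exosome were given at 2e+09 particles per mL, so PBS differed from either exosome group in the presence of vesicles and EKO_exo from WT_exo in the ApoE genotype of their source. The series title names the question as the part of ApoE in conveying signals for T cell activation and proliferation. No label says which mouse a culture came from, so the p-values below measure the spread between these cultures.

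Prosurvival members hold the effectors BAX and BAK in check; when BH3-only members, which sense stress, occupy the prosurvival proteins or engage the effectors directly, BAX and BAK permeabilize the mitochondrial outer membrane and release cytochrome c, which starts the caspase cascade. In T cells, BCL2 is tied to the survival of resting cells, BCL-XL (the long product of Bcl2l1) and A1 (Bcl2a1) to the period after antigen receptor and CD28 signals, and MCL1 is needed throughout. BIM, the product of Bcl2l11, is the BH3-only member best known for removing T cells after a response and when cytokine runs out.

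The 9 libraries held 25792975 to 32971791 counts each, and the mitochondrial share was 2.17% to 2.37%. Each EKO_exo library was the most extreme of the 9 on 1 principal component: replicate 3 on the first (18.8% of the variance), replicate 1 on the second (15.7%) and replicate 2 on the third (13.4%). The third also separated PBS (18.2 to 25.3) from WT_exo (-12.9 to -10.9). EKO_exo replicate 2 lay at -36.4, beyond WT_exo, and EKO_exo replicates 1 and 3 at 5.4 and 2.9, between PBS and WT_exo. Genes with a count numbered 19038 to 19518 in EKO_exo and 19989 to 20568 in the 6 other libraries. Replicates 1 and 3 lay farthest out, at -54.0 and 61.6 on their components, and calls in EKO_exo that were lost without both, a setting chosen after seeing the data, are given as such below. Defining markers of the labelled cell type were abundant, with Cd4 at 868 ± 18.0, 826 ± 5.595 and 886 ± 9.88 CPM and Cd3e at 475 ± 8.14, 470.1 ± 9.15 and 515 ± 22.5 CPM in PBS, WT_exo and EKO_exo (mean ± SD, n = 3 each). CPM, the usual depth-adjusted unit, are counts relative to the scaled library size. Transcripts of other cell types were present too: Ighm and Igkc, the immunoglobulin genes of B cells, averaged 428 to 478 and 94.6 to 127 CPM by group, and Ctss of the macrophage list 46.3 to 54.6 CPM. Csf1r of macrophages averaged 0.870 to 2.28 CPM and Cd8a 0.465 to 0.600 CPM. The summed level of 12 B cell markers was 607 to 654 CPM in PBS, 611 to 669.9 in WT_exo and 704 to 714 in EKO_exo. None of the 12 was at 0 in all libraries, but nearly all of the sum came from Ighm, Igkc and Cd74. These averaged 427.6, 104.6 and 82.2 CPM in PBS, where the next highest, Ighd, averaged 2.37 to 3.05 CPM by group. The sum is thus a measure of Ighm, Igkc and Cd74 and not of the whole list. The 14 macrophage and monocyte markers summed to 70.8 to 84.9, 81.5 to 89.4 and 84.4 to 94.5 CPM, with C1qa and Marco at 0 throughout. The 12 CD4 T cell markers summed to 4384 to 4490, 4315 to 4462 and 4572 to 4687 CPM. The 9 dendritic cell markers, which include Irf8, a factor that activated T cells also express, summed to 547 to 567, 672 to 686 and 651 to 679.6 CPM. For 8 neutrophil markers the ranges were 4.16 to 7.26, 5.83 to 8.67 and 5.77 to 7.59 CPM, and for 8 CD8 T and NK cell markers, with Klra8 at 0, 28.5 to 33.6, 30.6 to 34.4 and 34.4 to 37.3 CPM. Against PBS, edgeR called higher in EKO_exo 3 of 12 CD4 T cell, 3 of 11 B cell, 2 of 5 macrophage, 1 of 5 dendritic and 1 of 5 CD8 T and NK cell markers tested, and 0 of 4 neutrophil markers. Without EKO_exo replicates 1 and 3 together, Irf8 alone of these was called. Against PBS in EKO_exo, Cd3e, Cd5, Cd74 and Ctss held their calls in 5, 4, 4 and 5 of 16 alternatives and Csf1r in 3 of 14. In WT_exo it called 1 of 11 B cell and 1 of 5 dendritic cell markers higher, and 1 CD4 T cell (Thy1), 1 neutrophil (S100a9) and 1 CD8 T and NK cell marker (Gzma) lower. Of these calls in WT_exo, those of Thy1 and Irf8 held in 16 of 16 alternatives and that of Cd74 in 7 of 16. Those of S100a9 and Gzma held in 7 of 13 and 8 of 14, and edgeR called neither with any single PBS or WT_exo library left out. Between the exosome groups it called Igkc higher in EKO_exo (log2 fold change 0.43, edgeR adjusted p = 0.00219; 0.0538 without WT_exo replicate 1, 0.06 without WT_exo replicate 2 and 0.07 without EKO_exo replicates 1 and 3 together). DESeq2 called Igkc and 5 of the 12 CD4 T cell markers (Cd247, Cd3e, Cd4, Thy1 and Trbc2) higher in EKO_exo than in WT_exo. By edgeR 6 of the 12 had an unadjusted p under 0.05, as did 1039 of all 14684 genes tested, and 0 were called. The part of these shifts in the results below was not tested. In bulk RNA, fewer cells of a type and less RNA per cell cannot be told apart.

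Per kb of exon, the family spanned a wide range of mRNA levels. In PBS, Mcl1 stood highest at 164 ± 5.99 CPM per kb of exon (SD, n = 3), at the 98.9th percentile of the genes tested. Bax followed at 65.1 ± 0.0939 and Bak1 at 52.2 ± 0.716, with Bcl2l1 at 47.9 ± 2.15 and Bcl2 at 43.8 ± 0.460 CPM per kb just below them. Per kb of exon both effectors thus stood above Bcl2l1 and Bcl2 in every PBS library. This order rests on the length used, which counts all annotated exons of a gene (9.16 kb for Bcl2, 1.58 kb for Bax). Without it the PBS means were 400.9 CPM for Bcl2, 219.9 for Bcl2l1, 125.6 for Bak1 and 102.6 for Bax. The BH3-only members formed a lower tier, with Bcl2l11 at 12.0 ± 0.743, Bbc3 at 11.7 ± 1.10 and Bid at 10.6 ± 0.388 CPM per kb, followed by Pmaip1 at 4.11 ± 0.508. Bcl2a1b was lowest at 3.10 ± 0.738 CPM per kb, at the 42.6th percentile. Its level and rank are uncertain, since 79.2% of the stretches of 50 bases in its transcripts also occur in other genes. Neighbours in this order had separate ranges over the 3 PBS libraries except Bcl2l11 with Bbc3 and Bbc3 with Bid. The order of Mcl1, Bax, Bcl2, Pmaip1 and Bcl2a1b (ranks 1, 2, 5, 9 and 10) was the same in all 3 groups. Bak1 and Bcl2l1 held ranks 3 and 4 in PBS and EKO_exo and changed places in WT_exo, and Bcl2l11 stood at rank 6 in PBS and at rank 8, below Bbc3 and Bid, in either exosome group.

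**Figure D1:**
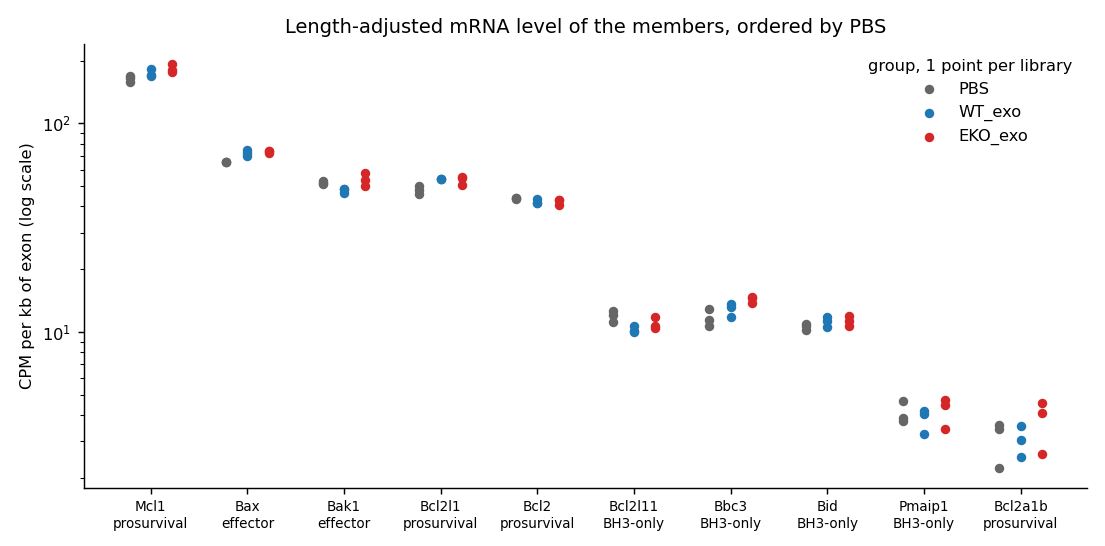
mRNA level in CPM per kb of exon (log axis) for the 10 members, ordered by their level in PBS, with 1 point per library and colour for the group. Mcl1 stands above all others, the effectors lie with Bcl2l1 and Bcl2 between 43.8 and 65.1 CPM per kb on average in PBS, and the BH3-only members and Bcl2a1b lie lower, at 3.10 to 12.0 CPM per kb in PBS.

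Changes within the family were small. Against PBS, 3 members rose in EKO_exo (Mcl1, Bcl2l1 and Bax, each by 11.5% to 12.4%) and none fell, and in WT_exo Bcl2l1 rose by 13.2% and Bcl2l11, the BIM gene, fell by 14.1%. These calls are from edgeR's quasi-likelihood F test on the counts of all 9 libraries, with Benjamini-Hochberg adjusted p under 0.05 over all genes tested. Among all genes tested, 2.21% rose and 2.87% fell in EKO_exo against PBS, and 1.83% rose and 3.14% fell in WT_exo against PBS. At an unadjusted p under 0.05 there were 5 members in either comparison. Of all 14684 genes tested, 2517 in EKO_exo and 2317 in WT_exo against PBS had such a p. DESeq2 called 4 members in EKO_exo (Bbc3 in addition, higher) and 3 in WT_exo (Bax in addition, higher). Its calls over all genes numbered 1006 in EKO_exo and 911 in WT_exo against PBS. The 2 comparisons share the PBS libraries. Between the exosome groups edgeR called none of the 10, against a background of 0.0272% of genes higher and 0.00681% lower in EKO_exo than in WT_exo. An unadjusted p under 0.05 was found for 1 member (Bak1) and for 1039 of all 14684 genes tested. DESeq2 called 0 members and 38 genes. The median log2 fold change of the 10 members was 0.12 in EKO_exo against PBS, 0.03 in WT_exo against PBS and 0.08 in EKO_exo against WT_exo, and over all genes tested it was 0.00 in each.

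In EKO_exo against PBS the 3 libraries of one group lay wholly apart from those of the other for 5 of the 10 members: Mcl1, Bcl2l1, Bax and Bbc3 above and Bcl2 below. Over all genes 20.5% were separated in this way. In WT_exo against PBS 5 members were separated, Mcl1, Bcl2l1 and Bax above and Bcl2l11 and Bak1 below, where 22.2% of all genes were. Between EKO_exo and WT_exo 2 were, Bak1 and Bbc3, both above in EKO_exo, where 11.8% of all genes were.

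**Figure D2:**
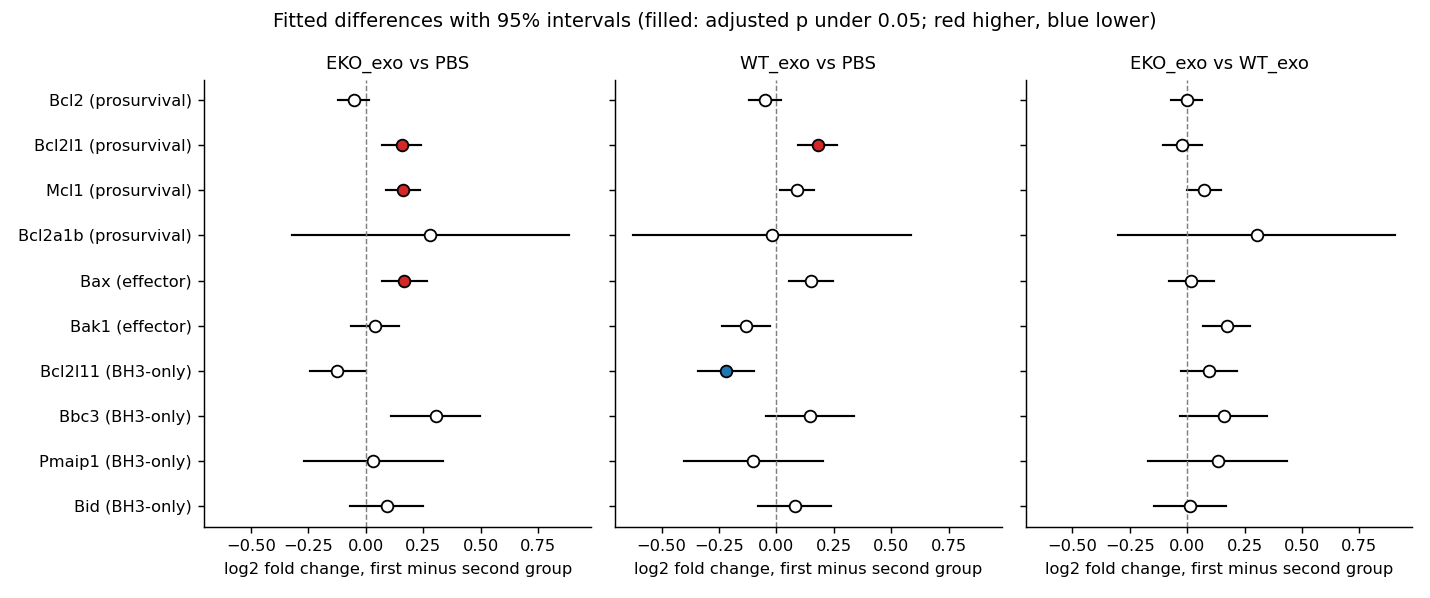
Fitted log2 fold change with its 95% interval for each member in the 3 comparisons, first group minus second; filled points passed an adjusted p under 0.05, red for higher and blue for lower. Bcl2l1 is filled against PBS in both exosome groups, Mcl1 and Bax in EKO_exo against PBS, Bcl2l11 in WT_exo against PBS, and nothing is filled between the exosome groups.

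Mcl1 (ENSMUSG00000038612, GRCm38 chr3:95658788-95663176), the short-lived prosurvival protein that all T cells need, measured 566, 537 and 576 CPM in PBS replicates 1, 2 and 3. It measured 586, 578 and 623 CPM in WT_exo and 657, 618 and 605 CPM in EKO_exo. All 6 exosome libraries lay above the highest PBS library, and the ranges of the 2 exosome groups overlapped. The log2 fold change was 0.16 ± 0.04 (SE; 95% interval 0.09 to 0.24; edgeR adjusted p = 0.0055) in EKO_exo against PBS. In WT_exo against PBS it was 0.09 ± 0.04 (0.02 to 0.16; edgeR adjusted p = 0.18), and between EKO_exo and WT_exo it was 0.07 ± 0.04 (-0.001 to 0.15; edgeR adjusted p = 0.71), so the larger value in EKO_exo was not shown to differ from that in WT_exo. The call in EKO_exo was lost without PBS replicate 2, the lowest library (log2 fold change 0.13, edgeR adjusted p = 0.0764), and with EKO_exo replicates 1 and 3 both left out (0.14, edgeR adjusted p = 0.119).

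Bcl2l1 (ENSMUSG00000007659, chr2:152780668-152831728) encodes BCL-XL, which CD28 costimulation is known to induce. It measured 219.5, 229.9 and 210.2 CPM in PBS, 249.7, 248 and 249 CPM in WT_exo and 232, 253 and 251 CPM in EKO_exo. The 3 WT_exo libraries were within an SD of 0.698 CPM of each other, and every exosome library lay above every PBS library. The log2 fold change against PBS was 0.18 ± 0.04 in WT_exo (0.10 to 0.26; edgeR adjusted p = 0.00756) and 0.16 ± 0.04 in EKO_exo (0.07 to 0.24; edgeR adjusted p = 0.0219). Between the exosome groups the difference was -0.02 ± 0.04 (-0.11 to 0.06; edgeR adjusted p = 0.953). The WT_exo call was lost without PBS replicate 3, the lowest library (log2 fold change 0.14, edgeR adjusted p = 0.0711). The EKO_exo call was lost without EKO_exo replicate 2 (log2 fold change 0.13, edgeR adjusted p = 0.109) or 3 (0.14, edgeR adjusted p = 0.0797). It was also lost without PBS replicate 1 (0.16, edgeR adjusted p = 0.0835) or 3 (0.12, edgeR adjusted p = 0.143), and held without EKO_exo replicates 1 and 3 together (0.20, edgeR adjusted p = 0.0386).

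Bcl2 itself, the founding member (ENSMUSG00000057329, chr1:106538178-106714274), passed no test. Its levels were 404, 403 and 396 CPM in PBS, 382, 398 and 381 CPM in WT_exo and 393, 392 and 374 CPM in EKO_exo. The EKO_exo libraries all lay below the PBS libraries, but the difference was small, -0.05 ± 0.03 (-0.12 to 0.02; edgeR adjusted p = 0.458), as it was in WT_exo (-0.05 ± 0.03; edgeR adjusted p = 0.522). EKO_exo and WT_exo differed by -0.002 ± 0.033 on the log2 scale (edgeR adjusted p = 0.996).

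Bcl2a1b (ENSMUSG00000089929, chr9:89199209-89207827), a copy of the NF-kB target gene A1, was near the floor of the data with 55 to 112 counts per library. It measured 2.82, 2.93 and 1.83 CPM in PBS, 2.91, 2.50 and 2.06 CPM in WT_exo and 3.35, 2.13 and 3.72 CPM in EKO_exo, with overlapping ranges throughout. Its log2 fold change was 0.28 ± 0.29 (-0.32 to 0.89; edgeR adjusted p = 0.707) in EKO_exo and -0.02 ± 0.29 (-0.63 to 0.58; edgeR adjusted p = 0.987) in WT_exo against PBS, and 0.30 (-0.30 to 0.91; edgeR adjusted p = 0.898) between them, so changes of the size seen in Mcl1 were not detectable at this depth. The value is uncertain for another reason: of the 768 stretches of 50 bases in its transcripts, 79.2% also occur in other genes, chiefly Bcl2a1d, Gm29094 and Bcl2a1a. With Bcl2a1a, Bcl2a1b and Bcl2a1d summed, the levels were 6.69, 7.40 and 5.21 CPM in PBS, 6.60, 6.16 and 6.80 CPM in WT_exo and 9.65, 7.48 and 7.14 CPM in EKO_exo. The summed log2 fold change was 0.33 in EKO_exo against PBS (edgeR adjusted p = 0.343) and 0.02 in WT_exo against PBS (edgeR adjusted p = 0.98).

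**Figure D3:**
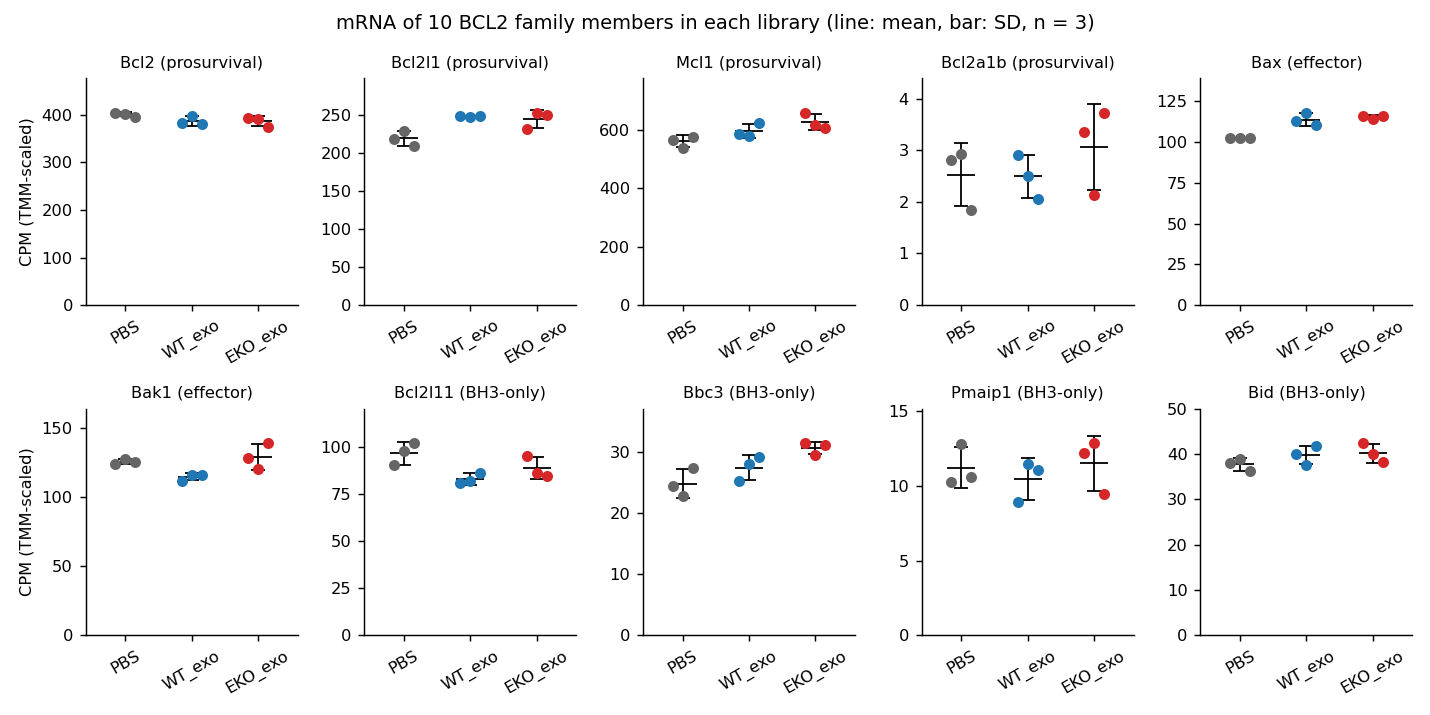
CPM of each of the 10 members in the 9 libraries (points), with the group mean (line) and SD (bar), n = 3; each panel has its own axis starting at 0. The exosome libraries of Mcl1, Bcl2l1 and Bax sit above all PBS libraries, those of Bcl2l11 in WT_exo sit below, and Bcl2a1b and Pmaip1 scatter widely within each group.

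The effectors Bax and Bak1, either of which can form the membrane pore, gave 1 call, Bax in EKO_exo. Bax (ENSMUSG00000003873, chr7:45461697-45466898) measured 103, 102.5 and 102 CPM in PBS, 113, 118 and 110.4 CPM in WT_exo and 116, 114 and 116 CPM in EKO_exo. The PBS libraries agreed to an SD of 0.148 CPM and all 6 exosome libraries were above them. On the log2 scale Bax differed from PBS by 0.17 ± 0.05 (0.07 to 0.26; edgeR adjusted p = 0.0344) in EKO_exo and by 0.15 ± 0.05 (0.05 to 0.25; edgeR adjusted p = 0.0676) in WT_exo. The exosome groups differed by 0.02 ± 0.05 (-0.08 to 0.11; edgeR adjusted p = 0.971). The Bax call was the least stable: it held in 5 of 16 alternative settings, although the log2 fold change stayed between 0.15 and 0.17 in all 16. Leaving out 1 EKO_exo library, replicate 1, 2 or 3, gave an edgeR adjusted p of 0.0861, 0.0598 or 0.0794. For PBS libraries it was 0.107, 0.122 or 0.0929 in the same order, and for WT_exo replicate 1 it was 0.05. With EKO_exo replicates 1 and 3 left out together it was 0.352. Conversely, Bax in WT_exo passed with DESeq2 (adjusted p = 0.0206). On the same strand, 12.2% of the exon bases of Bax are shared with Gm45808, which had no count in any library.

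Bak1 (ENSMUSG00000057789, chr17:27019810-27029009) measured 124, 127 and 125 CPM in PBS, 112, 116 and 116 CPM in WT_exo and 128, 120.2 and 139 CPM in EKO_exo. WT_exo lay below both other groups in every library, and EKO_exo overlapped PBS. No comparison passed the test: -0.13 ± 0.05 (-0.23 to -0.03; edgeR adjusted p = 0.16) in WT_exo against PBS, 0.04 ± 0.05 (-0.06 to 0.14; edgeR adjusted p = 0.767) in EKO_exo against PBS and 0.17 ± 0.05 (0.07 to 0.28; edgeR adjusted p = 0.426) in EKO_exo against WT_exo. The last had an unadjusted p of 0.0021. Over 16 alternatives its adjusted p ranged from 0.082 to 0.928. Exons of Ggnbp1 overlap those of Bak1 on the opposite strand, but its 2 gene entries averaged 0.568 to 2.06 CPM by group.

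Of the 4 BH3-only genes 1 passed a test, and in 1 comparison. Bcl2l11 (ENSMUSG00000027381, chr2:128126038-128162547) measured 90.0, 97.5 and 102 CPM in PBS, 80.8, 81.5 and 86.2 CPM in WT_exo and 95.05, 86.3 and 84.4 CPM in EKO_exo. All WT_exo libraries lay below all PBS libraries, while EKO_exo overlapped both. The log2 fold change against PBS was -0.22 ± 0.06 (-0.34 to -0.10; edgeR adjusted p = 0.0247) in WT_exo and -0.12 ± 0.06 (-0.24 to -0.003; edgeR adjusted p = 0.276) in EKO_exo. The exosome groups differed by 0.10 ± 0.06 (-0.025 to 0.22; edgeR adjusted p = 0.787), so the fall in WT_exo was not shown to be particular to it. The call was lost without PBS replicate 2 (edgeR adjusted p = 0.113), PBS replicate 3 (0.14), WT_exo replicate 1 (0.131) or WT_exo replicate 2 (0.115).

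Bbc3, which encodes PUMA (ENSMUSG00000002083, chr7:16308393-16318205), measured 24.4, 22.7 and 27.3 CPM in PBS, 25.2, 27.98 and 29.1 CPM in WT_exo and 31.4, 29.4 and 31.0 CPM in EKO_exo. Every EKO_exo library was above every library of the other 2 groups. Its log2 fold change in EKO_exo against PBS, 0.30 ± 0.09 (0.11 to 0.50), was the highest of the 10 members and missed the threshold (edgeR adjusted p = 0.0559). It passed with DESeq2 (adjusted p = 0.031), among genes of at least 5 CPM on average (edgeR adjusted p = 0.0335) and without PBS replicate 3 (edgeR adjusted p = 0.0382). In WT_exo against PBS it was 0.145 ± 0.094 (edgeR adjusted p = 0.508), and 0.16 ± 0.09 (-0.03 to 0.35; edgeR adjusted p = 0.773) separated the exosome groups.

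Pmaip1, which encodes NOXA, a partner of MCL1 (ENSMUSG00000024521), measured 10.3, 12.8 and 10.6 CPM in PBS, 8.89, 11.5 and 11.1 CPM in WT_exo and 12.2, 12.9 and 9.43 CPM in EKO_exo. Bid, the link from death receptors to mitochondria (ENSMUSG00000004446, chr6:120891930-120916853), measured 38.1, 38.8 and 36.2 CPM in PBS, 40.0, 37.7 and 41.8 CPM in WT_exo and 42.4, 40.0 and 38.2 CPM in EKO_exo. Both genes had overlapping ranges in all 3 comparisons. For Pmaip1 the log2 fold change was 0.03 (-0.27 to 0.34; edgeR adjusted p = 0.949) in EKO_exo and -0.10 (edgeR adjusted p = 0.844) in WT_exo against PBS. For Bid it was 0.09 (-0.07 to 0.25; edgeR adjusted p = 0.614) and 0.08 (edgeR adjusted p = 0.722). Over 17.7% of its exon bases Bid faces Bcl2l13 on the opposite strand, a gene at 94.0 to 101 CPM by group, and the strand setting of the counting is not known from the sources used.

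As a plain measure of balance, the mean log2 CPM of the 4 prosurvival members minus that of the 6 effector and BH3-only members was computed for each library and is given without a test. It was 1.22, 1.16 and 0.996 in PBS, 1.31, 1.17 and 1.09 in WT_exo and 1.16, 1.07 and 1.28 in EKO_exo. The groups overlapped, with means of 1.12 ± 0.11 (PBS), 1.19 ± 0.11 (WT_exo) and 1.17 ± 0.10 (EKO_exo; each SD over 3 libraries), and the differences between group means (0.07 for WT_exo and 0.05 for EKO_exo against PBS) were smaller than these SDs. Without Bcl2a1b, it was 2.965, 2.895 and 2.89 in PBS, 3.06, 2.98 and 2.97 in WT_exo and 2.87, 2.94 and 2.95 in EKO_exo. On that version the WT_exo libraries all lay above the PBS libraries, and EKO_exo had the same mean as PBS to 0.004. The lowest WT_exo library (2.97) barely cleared the highest PBS library (2.965), where the SDs were 0.049 in WT_exo and 0.042 in PBS.

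The sequence before the start site is shown for the 4 members whose mRNA passed a test, since it holds the proximal control region of each gene. The 250 bases are those before the RefSeq start in GRCm38.p6, 5′ to 3′ on the gene's strand, in lower case with motif matches in capitals. That start lies 67 bases upstream of the GENCODE start for Mcl1 and 0 bases from it for the other 3.
Mcl1, chr3:95658471-95658720, plus strand: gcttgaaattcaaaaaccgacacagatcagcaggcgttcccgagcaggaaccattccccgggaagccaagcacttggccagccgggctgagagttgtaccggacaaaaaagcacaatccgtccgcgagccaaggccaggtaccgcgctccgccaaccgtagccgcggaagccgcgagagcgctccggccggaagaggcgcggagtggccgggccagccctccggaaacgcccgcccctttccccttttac
Bcl2l1, chr2:152831729-152831978, minus strand: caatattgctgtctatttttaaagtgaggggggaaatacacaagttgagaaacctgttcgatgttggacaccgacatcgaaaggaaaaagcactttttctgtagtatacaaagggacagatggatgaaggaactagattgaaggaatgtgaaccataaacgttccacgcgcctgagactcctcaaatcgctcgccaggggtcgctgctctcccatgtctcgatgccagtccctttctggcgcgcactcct
Bax, chr7:45466899-45467148, minus strand: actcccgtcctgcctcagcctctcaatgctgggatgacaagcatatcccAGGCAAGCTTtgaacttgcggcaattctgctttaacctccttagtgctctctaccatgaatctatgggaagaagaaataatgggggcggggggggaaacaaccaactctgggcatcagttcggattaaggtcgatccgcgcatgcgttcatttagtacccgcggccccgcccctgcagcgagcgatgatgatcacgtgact
Bcl2l11, chr2:128125788-128126037, plus strand: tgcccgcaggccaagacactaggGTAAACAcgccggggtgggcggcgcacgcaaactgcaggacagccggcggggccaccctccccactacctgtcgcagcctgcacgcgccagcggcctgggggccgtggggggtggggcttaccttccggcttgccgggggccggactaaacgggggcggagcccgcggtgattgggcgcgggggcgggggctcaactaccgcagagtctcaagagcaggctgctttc
On both strands of windows running from 250 bases before to 50 after the start, 6 motifs were searched: the NF-kB decamer, the STAT motif TTCNNNGAA, the FOXO motif GTAAACA, the CRE TGACGTCA, the decamer of the p53 response element and the TATA box TATAAA. They occur in 8.5%, 8.3%, 3.6%, 1.8%, 8.4% and 13.6% of 32851 RefSeq windows. Bax held a p53 decamer, in capitals, at position -201 from the start, and Bcl2l11 a FOXO motif, in capitals, at -227. Mcl1 and Bcl2l1 held none of the 6 in this window. RefSeq gave 3 windows for Bcl2l1, 2 for Bcl2l11 and 3 for Bbc3, and only the window nearest the GENCODE start is described. Of the other members with an entry, Bbc3 held overlapping NF-kB matches on the 2 strands at -137 and -136 from its RefSeq start. Bcl2, Bcl2a1b, Bak1 and Bid held none. The RefSeq start used lay 1190 bases from the GENCODE start for Bbc3 and 382 bases from it for Bak1. The 9 matched windows ran from 46.7% GC with 4 CpG (Bcl2a1b) to 76.0% GC with 44 CpG (Bcl2), where the median window had 52.7% and 7. Mcl1 had 65.7% GC with 33 CpG, Bcl2l1 52.3% with 22, Bax 57.3% with 19 and Bcl2l11 71.0% with 27. Pmaip1 had no entry.

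Over the 9 libraries the genes whose profile lay closest to that of Mcl1, by root mean square difference of centred log2 CPM among 9567 genes of at least 5 CPM (median 0.123), were Ppp1r9b (0.033), Rela (0.034), Atg4b (0.034), Tet3 (0.034) and Scamp3 (0.036). They were chosen for this likeness, so their differences are a description. In EKO_exo against PBS their log2 fold changes were 0.19, 0.15, 0.19, 0.14 and 0.16 in that order. In CPM, Ppp1r9b averaged 182, 195 and 207 in PBS, WT_exo and EKO_exo, and Rela, which encodes the p65 subunit of NF-kB, averaged 183.5, 197 and 204.

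Of 16 further BCL2 family genes, 11 were tested. In WT_exo against PBS 2 of them fell and none rose: Bnip3, a mitochondrial BH3-like protein that hypoxia is known to induce, from 9.52 ± 1.00 to 5.92 ± 0.785 CPM (-0.68 ± 0.16 on the log2 scale, edgeR adjusted p = 0.01) and Bcl2l2, the prosurvival BCL-W, from 15.1 ± 1.34 to 11.2 ± 1.42 CPM (-0.43 ± 0.13, edgeR adjusted p = 0.0447). In EKO_exo they measured 6.55 ± 0.350 and 13.96 ± 1.15 CPM, and edgeR called none of the 11 (1 had an unadjusted p under 0.05, and DESeq2 called 1, Bnip3, lower). Of all 14684 genes tested, 2517 had such an unadjusted p in EKO_exo against PBS. The Bnip3 call in WT_exo was lost without PBS replicate 1 (edgeR adjusted p = 0.0841) or WT_exo replicate 3 (0.0762). That of Bcl2l2 was lost without PBS replicates 1, 2 or 3 (0.146, 0.0603 and 0.177) or WT_exo replicates 1 or 2 (0.205 and 0.189). Neither gene was called between the exosome groups (edgeR adjusted p = 0.91 for Bnip3 and 0.639 for Bcl2l2). The median log2 fold change of the 11 was 0.08 in EKO_exo and -0.03 in WT_exo against PBS.

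Downstream of the mitochondrion, 3 of 23 tested apoptosome, caspase and inhibitor genes fell in EKO_exo and 4 in WT_exo against PBS by edgeR, and none rose; DESeq2 called 4 lower in either comparison, Casp6 being the addition in EKO_exo. Without EKO_exo replicates 1 and 3 together, edgeR called 1 in EKO_exo. Birc5, whose product survivin serves both caspase inhibition and cell division, averaged 39.0 ± 2.35, 25.1 ± 2.63 and 29.6 ± 0.982 CPM in PBS, WT_exo and EKO_exo, a log2 fold change of -0.40 ± 0.09 in EKO_exo (edgeR adjusted p = 0.00611) and -0.64 ± 0.09 in WT_exo (edgeR adjusted p = 3.25e-05). Casp6 fell in WT_exo (-0.32 ± 0.08, edgeR adjusted p = 0.0129), and Vdac1, an outer membrane channel, fell by 0.14 (edgeR adjusted p = 0.0386) in EKO_exo and by 0.16 (edgeR adjusted p = 0.015) in WT_exo. The Birc5 call in EKO_exo was lost without PBS replicate 1 (edgeR adjusted p = 0.0638) and without EKO_exo replicates 1 and 3 together (0.066). Casp6 in WT_exo was lost without PBS replicate 1 or 2 or WT_exo replicate 2 (0.0511, 0.107 and 0.0789). Vdac1 was lost in EKO_exo on leaving out its replicate 1 or 3 (0.143 and 0.0663), PBS replicate 1 or 2 (0.169 and 0.141), or WT_exo replicate 1 or 3 (0.0559 and 0.0502), or EKO_exo replicates 1 and 3 together (0.482), and with the replicate block (0.0666) or only the 2 groups compared (0.06). It was lost in WT_exo without PBS replicate 1 or 2 or WT_exo replicate 2 (0.0925, 0.0725 and 0.131).

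Of 17 death receptor genes, edgeR called none in any comparison. At an unadjusted p under 0.05 there were 4 in EKO_exo against PBS, 4 in WT_exo against PBS and 0 between the exosome groups. Over all 14684 genes tested there were 2517, 2317 and 1039 in that order. DESeq2 called Tnfrsf1b in EKO_exo and Tnf in WT_exo, both higher than in PBS. Medians of the list were 0.08 and 0.03 on the log2 scale against PBS.

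Among 19 p53 and stress regulators, 3 rose in EKO_exo and 1 in WT_exo against PBS by edgeR, and none fell; DESeq2 called Zmat3 higher in WT_exo in addition. Trp53, the p53 gene, averaged 329.6 ± 6.85 CPM in PBS, 341 ± 3.03 in WT_exo and 361 ± 0.809 in EKO_exo, a rise of 0.13 ± 0.03 on the log2 scale in EKO_exo (edgeR adjusted p = 0.0162). Its targets Zmat3 and Trp53inp1 rose in EKO_exo by 0.19 ± 0.045 (edgeR adjusted p = 0.0116) and 0.21 ± 0.05 (edgeR adjusted p = 0.0132), and Trp53inp1 rose in WT_exo by 0.27 ± 0.05 (edgeR adjusted p = 0.00107). Bax and Bbc3 are also textbook p53 targets. The part of p53 in the values of any of these genes was not tested. The other 16 genes of the list did not pass in EKO_exo, among them the p53 targets Cdkn1a (0.07, edgeR adjusted p = 0.511) and Mdm2 (0.025, edgeR adjusted p = 0.853), and the list's median there was 0.07. All 3 EKO_exo calls were lost with replicates 1 and 3 left out together (edgeR adjusted p = 0.205 for Trp53, 0.35 for Zmat3 and 0.413 for Trp53inp1). They were also lost without PBS replicate 1 (0.107, 0.0511 and 0.058 in that order). Without PBS replicate 2, Trp53 and Trp53inp1 were lost (0.0528 and 0.094), without PBS replicate 3 Zmat3 (0.0506), and without EKO_exo replicate 1 Trp53inp1 (0.128).

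Genes that set MCL1 and BIM protein turnover and phosphorylation gave 2 rises by edgeR among 15 tested in either exosome group and no fall. DESeq2 called Fbxw7, a ubiquitin ligase subunit that targets MCL1, lower in EKO_exo in addition (edgeR log2 fold change -0.21, edgeR adjusted p = 0.0613). The genes that rose were the kinases Pim1 and Pim2, which cytokines induce through STAT5 and which phosphorylate BAD. Pim1 averaged 579.6 ± 15.5 CPM in PBS, 664 ± 15.9 in WT_exo and 658 ± 8.17 in EKO_exo, and Pim2 400.5 ± 9.88, 459 ± 10.6 and 463 ± 5.55 CPM. Pim1 differed from PBS on the log2 scale by 0.18 ± 0.03 in EKO_exo (edgeR adjusted p = 0.000305) and 0.195 ± 0.03 in WT_exo (edgeR adjusted p = 0.000112). Pim2 differed by 0.21 ± 0.03 (edgeR adjusted p = 0.000133) and 0.20 ± 0.03 (edgeR adjusted p = 0.000241). These calls held in 16 of 16 alternatives for both genes and both comparisons.

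Upstream, 6 of 16 NF-kB and STAT5 genes, including IL-2 and IL-7 receptor subunits, rose in EKO_exo against PBS by edgeR and 1 fell, and in WT_exo 6 rose and 2 fell. DESeq2 called 7 higher and 1 lower in EKO_exo and 8 higher and 3 lower in WT_exo, and without EKO_exo replicates 1 and 3 together edgeR called 2 higher (Nfkb2 and Nfkbiz) and 0 lower in EKO_exo. NF-kB drives Bcl2l1 and Bcl2a1 transcription, and STAT5 relays the IL-2 signal. Nfkbiz, an atypical IkB protein, averaged 71.0 ± 2.55, 82.7 ± 2.87 and 88.2 ± 1.42 CPM in PBS, WT_exo and EKO_exo, a log2 fold change of 0.31 ± 0.055 in EKO_exo (edgeR adjusted p = 0.00059) and 0.22 ± 0.055 in WT_exo (edgeR adjusted p = 0.0154). Stat5a averaged 333 ± 9.00, 376.5 ± 16.0 and 370.2 ± 5.06 CPM, 0.15 ± 0.04 in EKO_exo (edgeR adjusted p = 0.00975) and 0.18 ± 0.04 in WT_exo (edgeR adjusted p = 0.00228). Rel rose by 0.18 ± 0.04 in EKO_exo (edgeR adjusted p = 0.00869) and by 0.14 ± 0.04 in WT_exo (edgeR adjusted p = 0.0436). Nfkb2 rose by 0.15 ± 0.035 in EKO_exo (edgeR adjusted p = 0.00996) and by 0.21 ± 0.035 in WT_exo (edgeR adjusted p = 0.000384). Il2ra, the high-affinity IL-2 receptor subunit, fell from 1994 ± 2.67 CPM in PBS to 1831 ± 25.2 in WT_exo (-0.12 ± 0.03, edgeR adjusted p = 0.00365) and 1861 ± 81.8 in EKO_exo (-0.10 ± 0.03, edgeR adjusted p = 0.0219). The list median was 0.10 on the log2 scale in either comparison. In EKO_exo, Rel and Stat5a lost their calls without PBS replicate 1 (edgeR adjusted p = 0.0554 and 0.0512), Stat5a without PBS replicate 2 (0.085), and both with EKO_exo replicates 1 and 3 left out together (0.246 and 0.229). Nfkb2 lost its call there without EKO_exo replicate 2 (edgeR adjusted p = 0.0557) or PBS replicate 3 (0.0853), and Il2ra without EKO_exo replicate 1 (0.135), PBS replicate 1 or 2 (0.0705 and 0.082), or EKO_exo replicates 1 and 3 together (0.232). In WT_exo, Rel held in 8 of 16 alternatives (edgeR adjusted p = 0.00911 to 0.196) and was lost without PBS replicate 1, 2 or 3 (0.184, 0.107 and 0.11), WT_exo replicate 1 or 3 (0.196 and 0.194) or EKO_exo replicate 2 (0.054). Nfkbiz was lost there without PBS replicate 1 or 2 (0.08 and 0.103) or WT_exo replicate 1 or 2 (0.0935 and 0.0759). No gene of these lists was called by edgeR between the exosome groups, and 1, Il2rg, was called higher in EKO_exo by DESeq2.

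**Figure D4:**
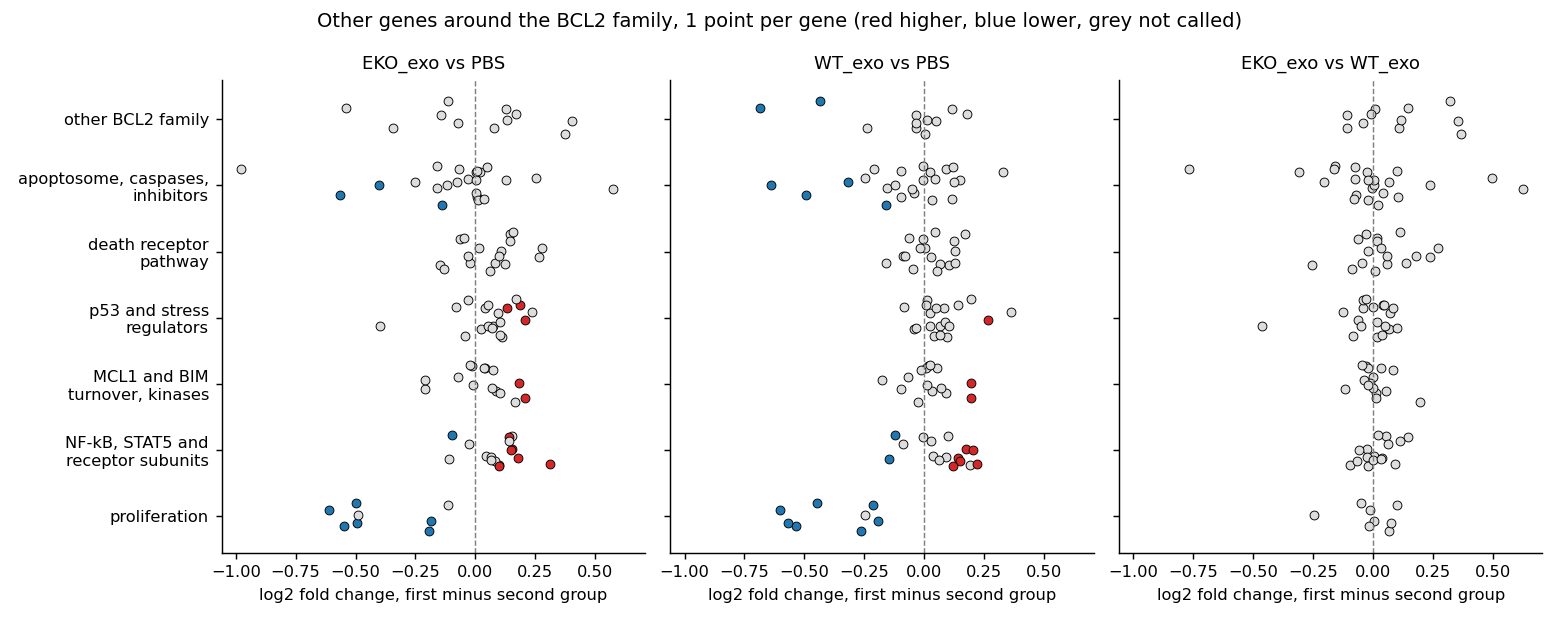
Log2 fold change of each tested gene in 7 lists around the family in the 3 comparisons, 1 point per gene, first group minus second; red and blue points passed an adjusted p under 0.05 as higher and lower, grey did not. The coloured points of the caspase and proliferation lists lie left of 0, those of the p53 and turnover lists lie right of 0, and the panel between the exosome groups has no coloured point.

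Proliferation genes moved beside these results. Of 8 tested, 6 fell in EKO_exo (4 without its replicates 1 and 3 together) and 7 in WT_exo against PBS, and edgeR called 0 between the exosome groups, with 0 by DESeq2. Mki67, the Ki-67 gene, averaged 489 ± 7.33 CPM in PBS, 329 ± 12.7 in WT_exo and 347 ± 8.46 in EKO_exo, a log2 fold change of -0.57 (edgeR adjusted p = 2.02e-11) in WT_exo and -0.50 (edgeR adjusted p = 6.06e-10) in EKO_exo. Birc5 is also a gene of dividing cells. The part of the lower proliferation genes in the values of Birc5 and the BCL2 family was not tested.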

How the data were processed

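The authors deposited raw counts per gene for 9 RNA-seq libraries. STAR 2.7.5c and GRCm38 are named in the submitters' processing notes; for the counter, its strand setting and its annotation, nothing is given in the sources used here. Per the labels, RNA came from a Qiagen RNeasy kit and libraries from a Universal Plus mRNA-Seq kit. Symbols, exon lengths and coordinates came from GENCODE M21 by Ensembl identifier, matching 55536 of 55536 genes; promoter sequences are from RefSeq, GRCm38.p6, matching 9 of 10 members.

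Under R 4.3.3, edgeR 4.0.16 was applied to the counts: filterByExpr (minimum count 10, total 15) kept at least 99.92% of each library's counts, library sizes were TMM-scaled, and 1 model of 3 groups without covariates was fitted to all 9 libraries (6 residual and 21.1 prior degrees of freedom). Adjusted p-values are Benjamini-Hochberg over the 14684 genes tested. CPM use the scaled library sizes, and log2 CPM a prior count of 2. No library was counted as a duplicate, since pairs within a group gave chi-square values of 5.21 to 9.52 relative to their degrees of freedom. Alternatives were DESeq2 1.42.0, its size factors, other filters, fewer groups, a replicate block and left-out libraries. The scripts were tested on simulated data. Members and lists were chosen with earlier results of these data known. All members are named; of each other list the called genes, at most the 3 with the smallest p per comparison, and for the BCL2 family all called. Cdkn1a, Mdm2, Fbxw7, Tnfrsf1b, Tnf and Il2rg, outside that rule, were named after their values were seen. Some called genes of these lists are not reported here by name.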

Additional observations from a re-analysis of the deposited data

How the results depend on the processing

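Of the members' log2 fold changes under the alternatives, 424 kept their direction and side of the threshold, 22 lost a call, 6 gained one and 22 changed sign, none of the last at a called value. Leaving out each library in turn gave 1 to 3 members called in EKO_exo against PBS and 0 to 2 in WT_exo against PBS. The genes called then numbered 375 to 687 in EKO_exo against PBS (746 with all libraries, 399 and 375 without PBS replicates 1 and 2), 399 to 870 in WT_exo against PBS (730; 410, 399, 441, 430 and 432 without PBS replicates 1 and 2 and WT_exo replicates 1, 2 and 3) and 0 to 6 in EKO_exo against WT_exo (5; 1 without EKO_exo replicate 2 or WT_exo replicate 1 or 3, 0 without WT_exo replicate 2). Where a sign changed with 1 library left out, log2 fold changes in EKO_exo against PBS ran from -0.057 to 0.158 (Pmaip1) and -0.017 to 0.086 (Bak1). In WT_exo against PBS they ran from -0.21 to 0.099 (Bcl2a1b) and -0.169 to 0.005 (Pmaip1), and in EKO_exo against WT_exo from -0.046 to 0.017 (Bcl2l1), -0.027 to 0.049 (Bid), -0.015 to 0.02 (Bcl2) and -0.004 to 0.045 (Bax). With EKO_exo replicates 1 and 3 left out together, 1 member and 249 genes were called in EKO_exo against PBS and 0 genes in EKO_exo against WT_exo; the lone EKO_exo library was assumed to vary like the other groups. Bcl2a1b and Bak1 were then at -0.246 and -0.064 against PBS, and Bcl2, Bcl2l1 and Bcl2a1b at 0.019, 0.025 and -0.224 against WT_exo. Summing the 3 Bcl2a1 genes turned WT_exo against PBS to 0.02. Genes called in EKO_exo against WT_exo numbered 28 with no low count filter, 9 at a mean of at least 5 CPM, 38 with DESeq2 and 1 with the replicate block. Same-numbered libraries showed no shared deviation (9 pairs, r from -0.07 to 0.019, against -0.09 to 0.142 for different numbers). A pairing with a small effect could escape this check, so whether the numbers are a pairing is not known. With the replicate block 2 members were called in either comparison with PBS, and Bax in EKO_exo had an edgeR adjusted p of 0.054. Beyond fewer libraries or genes tested, the cause of each change was not tested. With 3 cultures a group and called effects of 11.5% to 14.1% in size, single libraries decide several calls, and the 55 to 112 counts of Bcl2a1b limit it to changes larger than its interval.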
